A study of Mus musculus with 27 samples.

Results

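The genes described here are 38 genes of DNA replication and mitosis, taken by symbol from a fixed list out of the 37095 genes of a mouse count table. All 38 symbols were found. By role, 17 act in replication, 7 control entry into S phase and 14 act in mitosis. The replication genes comprise 10 that license origins, 4 that activate the replicative helicase and 3 that supply nucleotides. The mitosis genes comprise 6 kinases and cyclins, 2 genes of chromosome structure and 6 of the spindle checkpoint and chromosome segregation.

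Poly(A) RNA was sequenced from brain, meninges and skull of mice, in 27 libraries that form 9 groups of 3. In each tissue, an untreated control was set beside tissue taken 0.5 h and 24 h after the interparietal bone, a plate at the back of the skullcap, was irradiated with UVB at 311 nm and 2 mW, a treatment the labels call photobiomodulation. The question the design poses is what light on the skull does to the bone, the membranes under it and the brain. The labels give no strain, age, sex, anaesthesia or sham exposure for the controls, so handling and light cannot be told apart. They also do not say whether the 3 libraries of a group came from separate animals, so the p-values measure only the spread between these libraries, which may be technical. The labels record that the meninges were scraped from the skullcap.

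A dividing cell first loads a double ring of MCM helicase onto replication origins, a step called licensing, and later fires those origins to copy its DNA. Genes of licensing and synthesis are largely switched on by E2F factors at the border of G1 and S phase, whereas genes of mitosis peak later, in G2, under the MuvB complex, B-Myb and FoxM1. In the adult, the marrow inside the skull holds many dividing blood precursors, while most neurons have left the cell cycle.

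Promoters of both classes carry known short motifs, and they are shown because replication and mitosis genes are compared throughout. The 250 bases before the start are printed for 4 replication and 4 mitosis genes, from RefSeq on GRCm38.p6, 5′ to 3′ on the strand of the gene. Cdt1, Mcm7, Ccnb1 and Mki67, and then Rrm1 and Cdca8, had the smallest p-values of their class between untreated tissues among genes with an entry, which Ccna2 lacked. Mcm5 and Cdk1 were added after the motifs had been seen, since both hold an E2F match. Capitals mark every match, on either strand, to an E2F site (TTTCCCGC, TTTGGCGC, TTTCGCGC or TTTGCCGC), to the cell cycle genes homology region, or CHR (TTTGAA or TTCGAA), and to the CCAAT box bound by NF-Y (CCAAT).
Cdt1 chr8:122567765-122568014 (plus strand): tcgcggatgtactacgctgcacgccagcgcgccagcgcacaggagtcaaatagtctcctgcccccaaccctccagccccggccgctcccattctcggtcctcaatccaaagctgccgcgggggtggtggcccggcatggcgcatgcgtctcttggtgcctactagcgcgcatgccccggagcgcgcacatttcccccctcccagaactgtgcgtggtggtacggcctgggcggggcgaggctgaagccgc
Mcm7 chr5:138171884-138172133 (minus strand): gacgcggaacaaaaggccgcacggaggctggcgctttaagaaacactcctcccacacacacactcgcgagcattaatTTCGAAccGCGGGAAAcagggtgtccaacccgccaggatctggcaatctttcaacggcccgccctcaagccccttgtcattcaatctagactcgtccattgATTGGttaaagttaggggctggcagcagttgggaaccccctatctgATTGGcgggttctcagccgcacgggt
Rrm1 chr7:102441445-102441694 (plus strand): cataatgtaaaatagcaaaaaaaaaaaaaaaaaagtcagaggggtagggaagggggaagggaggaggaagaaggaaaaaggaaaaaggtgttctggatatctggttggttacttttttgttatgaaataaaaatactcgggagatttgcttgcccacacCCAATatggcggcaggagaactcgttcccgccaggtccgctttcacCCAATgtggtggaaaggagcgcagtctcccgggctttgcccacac
Mcm5 chr8:75109259-75109508 (plus strand): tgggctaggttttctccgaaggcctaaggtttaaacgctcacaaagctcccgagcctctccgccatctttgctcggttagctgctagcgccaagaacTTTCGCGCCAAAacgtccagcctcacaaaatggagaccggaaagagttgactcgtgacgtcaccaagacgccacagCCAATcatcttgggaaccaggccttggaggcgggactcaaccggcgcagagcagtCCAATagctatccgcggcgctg
Ccnb1 chr13:100786487-100786736 (minus strand): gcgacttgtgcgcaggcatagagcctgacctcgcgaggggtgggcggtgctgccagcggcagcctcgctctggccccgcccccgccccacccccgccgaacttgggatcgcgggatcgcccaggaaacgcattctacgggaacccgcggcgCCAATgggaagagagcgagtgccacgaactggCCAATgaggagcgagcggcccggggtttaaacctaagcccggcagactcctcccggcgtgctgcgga
Mki67 chr7:135716380-135716629 (minus strand): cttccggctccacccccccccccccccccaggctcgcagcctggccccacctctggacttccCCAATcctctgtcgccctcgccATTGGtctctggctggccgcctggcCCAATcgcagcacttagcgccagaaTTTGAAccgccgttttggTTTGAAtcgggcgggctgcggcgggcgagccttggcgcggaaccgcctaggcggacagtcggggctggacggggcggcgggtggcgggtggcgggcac
Cdca8 chr4:124936918-124937167 (minus strand): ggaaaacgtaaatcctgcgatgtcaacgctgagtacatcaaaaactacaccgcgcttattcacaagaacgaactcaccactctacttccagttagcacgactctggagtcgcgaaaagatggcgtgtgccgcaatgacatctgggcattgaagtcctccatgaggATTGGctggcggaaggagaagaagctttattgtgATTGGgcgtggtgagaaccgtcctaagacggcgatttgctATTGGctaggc
Cdk1 chr10:69352913-69353162 (minus strand): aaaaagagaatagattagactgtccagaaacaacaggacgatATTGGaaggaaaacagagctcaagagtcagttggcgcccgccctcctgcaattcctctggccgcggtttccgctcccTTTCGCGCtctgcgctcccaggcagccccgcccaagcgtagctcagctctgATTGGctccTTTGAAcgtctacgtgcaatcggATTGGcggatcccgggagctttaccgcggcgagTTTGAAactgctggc

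The replication and mitosis promoters differed mainly in the E2F and CHR matches. In a window from 250 bases before to 50 after the start, 7 of the 14 replication genes with an entry held an E2F match (50%), namely Orc1, Cdc6, Cdt1, Mcm3, Mcm5, Mcm6 and Mcm7. Among mitosis genes 1 of 12 did (8.3%), Cdk1, whose match began at position -131. The share over the promoters of 27025 genes was 2.6%. The CHR was matched in 10 of 12 mitosis genes (83.3%), in 3 of 14 replication genes (21.4%) and in 21.7% of all genes. The CCAAT box was matched in 11 of 12 mitosis genes (91.7%), in 11 of 14 replication genes (78.6%) and in 41.1% of all genes. In a narrower window, the 150 bases before the start, the CHR was matched in 33.3% of mitosis, 7.1% of replication and 50% of S phase entry genes, beside 11.2% of all genes. The E2F site was matched there in 28.6% of replication and 8.3% of mitosis genes, beside 1.4% of all genes. Of the 6 genes of S phase entry with an entry, in the wider window, 2 held an E2F match (Cdk2 and E2f2), 3 a CHR and 4 a CCAAT box. The match in Cdt1 lies 33 bases into the transcript and the CHR in Cdca8 begins 14 bases into it, past the printed bases. In Mcm5, E2F matches on both strands overlap as TTTCGCGCCAAA. A match describes letters only. In all, 32 of the 38 genes had an entry, and a gene counted once if any of its starts held the motif. Several starts were listed for 3 of the 32 (9.4%), against 15.4% of all genes, namely Mcm7, E2f2 and Skp2. The printed start of Mcm7 is the one with E2F and CHR matches, and its other start holds only a CCAAT match.

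**Figure D1:**
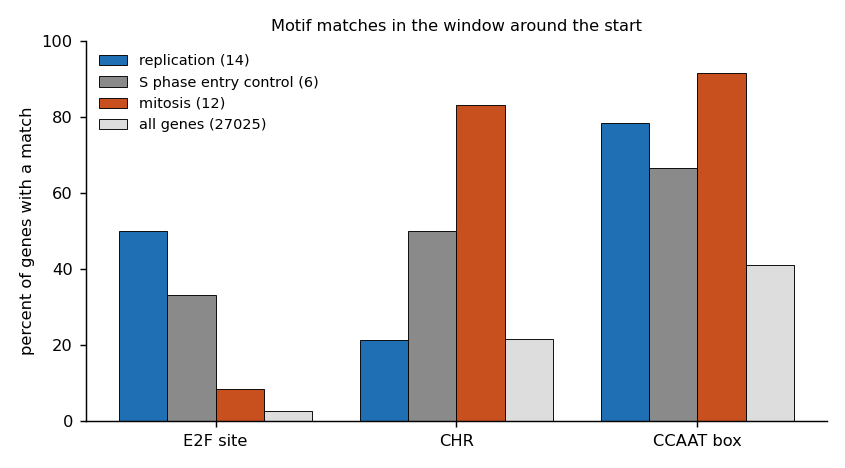
Percent of genes whose window from 250 bases before to 50 after the start holds each motif on either strand, for replication genes, S phase entry genes, mitosis genes and all genes with an entry. Among replication genes 50% hold an E2F site and among mitosis genes 83.3% hold a CHR, against 2.6% and 21.7% of all genes.

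Library totals ran from 14208961 to 27305294 counts. Levels are given as CPM, counts scaled to a common library total after TMM normalization. Cell markers set the tissues apart only in part. The 8 neuronal markers summed to between 8100 and 8730 CPM in untreated brain, 282 to 406 in meninges and 47.5 to 58.7 in skull. The 8 meningeal fibroblast markers summed to 3350 to 4210 CPM in untreated meninges, but to 4090 to 5040 in skull and 410 to 554 in brain. The 6 microglia markers were lowest in untreated brain (155 to 185 CPM), beside 390 to 435 in meninges and 391 to 443 in skull. Markers of bone-forming osteoblasts summed to between 20200 and 35900 CPM in the untreated meninges, beside 55800 to 102000 in skull and 46.1 to 72.9 in brain. The untreated meninges also held the 5 pineal gland markers at a sum of 1140 to 1360 CPM, beside 1.33 to 2.87 in brain. Several libraries stood apart for the 38 genes. Brain control 1, the deepest library, was the highest of the 9 brain libraries for 28 of them, and meninges 24 h library 2 was the highest in its tissue for 28. Skull control 3 was the lowest in its tissue for 29, and skull 0.5 h library 3 the highest for 19. In a bulk sample, fewer cells of a type and less RNA per cell cannot be told apart.

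In the untreated tissues nearly all of these genes were highest in skull. Against brain, 37 of 38 were higher in skull by edgeR's quasi-likelihood test at an adjusted p under 0.05, where 37.3% of all 21500 genes tested were called higher. Among the 37, Ccnb1, Bub1 and Aurkb held too few counts to be tested in brain alone. They passed the filter of this fit only through the tissues where they are high, so their calls against brain were largely set beforehand. The median log2 fold change of the 38 genes was 3.63, a 12.4-fold difference, beside -0.02 over all genes. Mitosis genes lay furthest apart, with a median of 4.27 (19.3-fold) over 14 genes. Replication genes followed with 3.27 (9.66-fold) over 17 and S phase entry genes with 0.99 (1.99-fold) over 7. The mitosis median includes Ccnb1, Bub1 and Aurkb, and was not taken without them, so the order of the classes is description only. The exception was Ccne1, cyclin E1, whose log2 fold change of 0.13 ± 0.24 (SE) did not pass (adjusted p = 0.647).

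The levels in each library show the gap. Mki67, which encodes the surface coat of mitotic chromosomes and serves as a stain for dividing cells, read 350, 387 and 285 CPM in the 3 untreated skull libraries. It read 22.1, 17.7 and 27.1 CPM in meninges and 14.8, 7.49 and 8.04 in brain. Every skull library lay far above the others, and the lowest meninges library above the highest in brain. Top2a, the topoisomerase that untangles replicated chromosomes, read 210, 242 and 170 CPM in skull, 18, 13.6 and 27.3 in meninges and 19.3, 3.39 and 3.99 in brain. Here brain control 1 lay inside the meninges range. Rrm2, the regulated subunit of ribonucleotide reductase, read 103, 95.6 and 79.4 CPM in skull, 7.88, 7.57 and 7.80 in meninges and 7.77, 1.30 and 2.28 in brain.

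The same order held for the helicase and its loaders. Mcm5, a subunit of the MCM ring, read 98.2, 113 and 74.5 CPM in skull, 15.3, 10.8 and 20.1 in meninges and 9.62, 6.77 and 5.57 in brain. Cdc6, which loads that ring, read 23.3, 24.9 and 21.4 CPM in skull, 3.38, 2.56 and 3.90 in meninges and 2.19, 0.195 and 1.20 in brain. Cdc45, which joins the ring to form the active helicase, read 17.6, 22.2 and 12.8 CPM in skull, 3.32, 2.56 and 4.29 in meninges and 2.08, 2.67 and 0.633 in brain. The skull libraries did not overlap the others for any of these, whereas meninges and brain overlapped for Cdc45. E2f1, the activator of S phase genes, was flatter: 23.2, 23.8 and 17.1 CPM in skull, 16.4, 13.3 and 13.9 in meninges and 10.9, 10.4 and 10.9 in brain, with no overlap between the tissues.

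Genes of mitotic entry and exit were also highest in skull. Cdk1, the kinase that drives entry into mitosis, read 50.1, 58.4 and 41.7 CPM in skull, 5.94, 4.74 and 5.96 in meninges and 4.96, 0.977 and 1.52 in brain. Ccnb1, its cyclin B1 partner, read 28.3, 34.4 and 25.0 CPM in skull, 2.63, 2.45 and 3.51 in meninges and 2.30, 0.586 and 0.633 in brain. Cdc20, which switches on the complex that ends metaphase, read 41.2, 42.0 and 30.5 CPM in skull, 5.19, 3.6 and 5.74 in meninges and 3.03, 0.912 and 1.46 in brain. For all 3, the skull libraries stood clear of the rest and the meninges libraries were above the highest brain library, except that Cdk1 in meninges control 2 lay below brain control 1.

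Against brain, the 8 smallest p-values in skull belonged to Cdt1, Cdk2, Mcm7, Mcm6, Rrm1, E2f2, Mcm4 and Ccna2. The log2 fold change of Cdt1, a loader of the MCM ring, was 4.09 ± 0.22 (edgeR adjusted p = 2.86e-14). That of Cdk2, the kinase of S phase entry, was 4.13 ± 0.22 (adjusted p = 4.09e-14). The largest of the 38 belonged to E2f2, an E2F activator, at 6.66 ± 0.35 (adjusted p = 1.20e-13). Mcm7, Mcm6 and Mcm4, all subunits of the ring, differed by 2.76, 3.57 and 2.81. Rrm1, the large subunit of ribonucleotide reductase, differed by 2.43 ± 0.14, and Ccna2, cyclin A2, by 4.17 ± 0.27. Among mitosis genes Ccnb1 differed by 4.5 ± 0.32 and Mki67 by 5.05 ± 0.32.

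Skull also exceeded meninges for 37 of 38 genes, where 21.6% of all genes were called higher in skull. The median log2 fold change was 2.50 (5.66-fold), with 3.23 (9.4-fold) for mitosis, 1.98 for replication and 1.23 for S phase entry genes. The smallest p-values were those of Rrm1 (1.89 ± 0.14, edgeR adjusted p = 7.64e-11), E2f2 (4.18 ± 0.29), Mcm7 (1.98 ± 0.15), Ccna2 (3.14 ± 0.25), Cdca8 (3.46 ± 0.29), a subunit of the chromosomal passenger complex, Mki67 (3.93 ± 0.31), Ccnb1 (3.35 ± 0.30) and Plk1 (3.27 ± 0.30), a mitotic kinase. E2f1 was the exception, at 0.56 ± 0.23 with an adjusted p of 0.051. Without skull control 2 the call of Ccne2 was lost against meninges (adjusted p = 0.0592) and against brain (0.0737). That of Gins2 against meninges was lost without meninges control 1 (0.0665) or 2 (0.0526).

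Meninges exceeded brain for 27 genes, where 36.8% of all genes were called higher, and lay below it for 1 gene, where 33.7% were called lower. By class, 14 of 17 replication, 3 of 7 S phase entry and 10 of 14 mitosis genes were higher. Of these mitosis genes, Ccnb1 and Aurkb entered the fit only through the tissues other than brain. The median log2 fold change was 1.06 (2.09-fold). The smallest p-values belonged to Cdk2 (2.91 ± 0.22, edgeR adjusted p = 2.23e-11), Mcm4 (1.73 ± 0.18), Cdt1 (2.03 ± 0.22), Mcm6 (1.79 ± 0.19), E2f2 (2.49 ± 0.35), Mcm3 (2.13 ± 0.31), Mcm2 (1.54 ± 0.24) and Bub1b (1.54 ± 0.27), a checkpoint kinase. The gene lower in meninges was Ccne1, at 3.75, 1.31 and 4.4 CPM against 14.9, 12.3 and 12.8 in brain, a log2 fold change of -2.09 ± 0.26 (adjusted p = 1.79e-07). Top2a, Bub1, E2f1, Gins1, Skp2, Ccne2, Orc6, Plk1, Orc1 and Aurka did not pass. Without brain control 1 the count was 28 higher and 1 lower, and the median was 1.68, while that between skull and brain moved to 3.92, and to 5.39 for the mitosis genes. Rrm2 kept its call only without brain control 1 (adjusted p up to 0.181). Cdc45 was lost without brain control 1 or 3 or meninges control 1 or 3 (up to 0.203), and Cdca8 and Cdk1 without brain control 2 or 3 or meninges control 1 or 3 (up to 0.186 and 0.0962). Mcm10 was lost without brain control 3 or meninges control 1 or 3 (up to 0.134), and Ccnb2 without brain or meninges control 3 (0.0516 and 0.0554). Cdc45 and Cdca8 were lost with RLE scaling (0.0652 and 0.0672), no filter (0.0785 and 0.0888) and limma-voom (0.108 and 0.162), Rrm2 with the first (0.0671) and second (0.109), Cdk1 with no filter (0.0590) and Mcm10 with limma-voom (0.152). In a fit of only the groups compared these 5 genes, Cdc6, Ccnb1 and E2f8 were lost, at adjusted p-values of 0.0845 to 0.210.

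Per kilobase of exon, which allows levels of different genes to be compared, the median of the replication genes was 1.03 CPM per kb in untreated brain, 2.80 in meninges and 11.1 in skull. For mitosis genes it was 0.772, 1.43 and 11.1. In skull the highest per length were Mki67 (33.9), Rrm2 (33.5) and E2f2 (25.7), and the lowest were Skp2 (1.57), Orc1 (1.59) and, among mitosis genes, Bub1 (4.62). The replication median was above the mitosis median in brain and meninges, and both were 11.1 in skull.

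**Figure D2:**
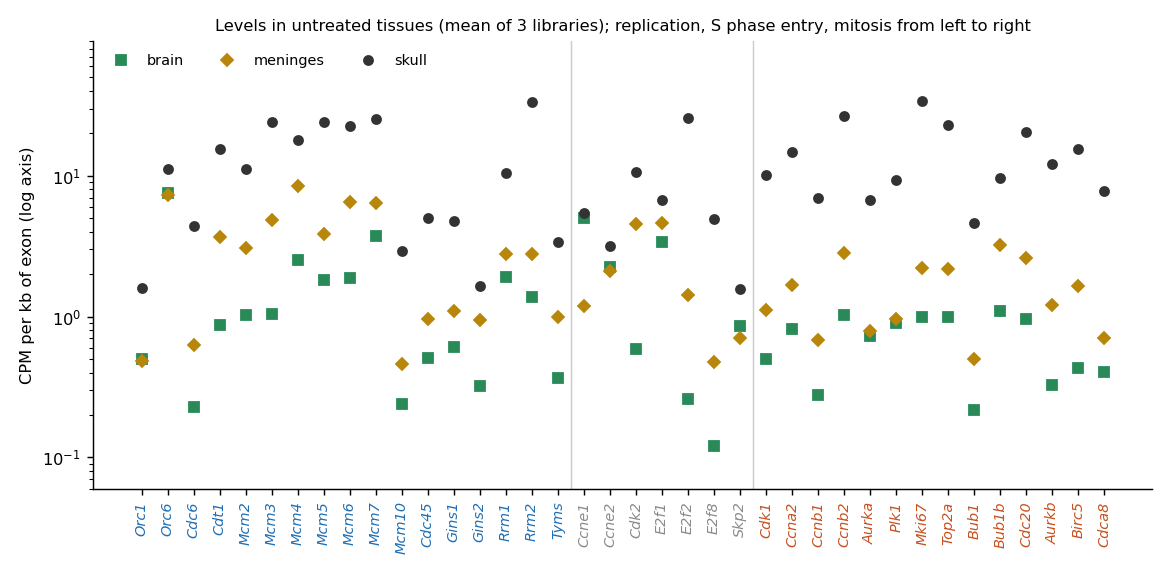
Level of each of the 38 genes in the untreated tissues, as CPM per kb of exon on a log axis, 1 mark for the mean of 3 libraries of a tissue, with replication, S phase entry and mitosis genes from left to right. Skull lies highest for nearly all genes, up to 33.9 CPM per kb for Mki67, and Ccne1 stands close in brain and skull.

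Markers of committed blood precursors ran in the same order across tissues, whereas the summed list of stem and progenitor markers was highest in brain. In untreated brain, meninges and skull, the 11 measured of 12 erythroid markers summed to 165 to 189, 1780 to 2440 and 6160 to 6810 CPM. The 10 granulocyte precursor markers summed to 2.04 to 2.41, 103 to 388 and 3390 to 6760 CPM, and the 12 B cell precursor markers to 15.9 to 16.2, 136 to 143 and 359 to 415 CPM. The 8 haematopoietic stem and progenitor markers summed to 323 to 336 CPM in brain, 185 to 226 in meninges and 154 to 212 in skull, the latter overlapping. This sum does not show which cells supply it, and is not read as a count of blood progenitors. Of the 8, only Gfi1 was at 0 in brain at 0.5 h and at 24 h. Gata1, Igll1 and Rag2 were among the markers at 0 in untreated brain, and Rag2 was at 0 in untreated meninges. The part of these cells in the tissue differences was not tested.

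In brain at 0.5 h none of the genes passed, as was the case for nearly all genes (0.0055% called). Of the 38, 35 had enough counts to be tested (not Ccnb1, Bub1 or Aurkb), and 3 had an unadjusted p under 0.05. DESeq2 and limma-voom also called 0. The fold changes were negative for 31 of the 35, with a median of -0.46 beside -0.00 over all genes, and for all 11 tested mitosis genes, with a median of -0.72. The smallest p-values in replication were those of Cdt1 (-1.01 ± 0.38, edgeR adjusted p = 0.895), Rrm2 (-1.19) and Rrm1 (-0.22), and in mitosis those of Mki67 (-1.13 ± 0.28, adjusted p = 0.453), Cdk1 (-1.88 ± 0.59, 0.764) and Cdc20 (-0.95, 0.938). None passed. Without brain control 1 the median was -0.11.

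At 24 h in brain, 3 genes fell and 1 rose. Cdk1 had read 4.96, 0.977 and 1.52 CPM in control brain and 0.521, 1.06 and 0.474 at 0.5 h, and read 0.274, 0.0676 and 0.0692 at 24 h, on 4, 1 and 1 counts. All 3 of the late libraries lay below the 6 others. Its log2 fold change was -4.15 ± 0.75 (edgeR adjusted p = 0.00829). Mki67 read 6.25, 3.51 and 4.20 CPM at 0.5 h and 4.05, 3.38 and 2.91 at 24 h. It lay below every control library, with a log2 fold change of -1.57 ± 0.29 (adjusted p = 0.00829). Cdt1 read 4.12, 1.89 and 2.15 CPM in controls and 0.960, 0.811 and 0.899 at 24 h, without overlap, a log2 fold change of -1.63 ± 0.40 (adjusted p = 0.0367). The share of all genes called lower was 1.42%.

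The gene that rose in brain was Skp2, the substrate-binding subunit of the ubiquitin ligase that degrades the cyclin-dependent kinase inhibitor p27. It read 6.67, 8.08 and 5.57 CPM in controls, 7.56, 7.28 and 8.87 at 0.5 h and 14.5, 11.8 and 9.27 at 24 h. The 24 h libraries lay above the rest. The log2 fold change was 0.80 ± 0.20 (edgeR adjusted p = 0.0391), where 1.21% of all genes were called higher. The call was lost with non-robust dispersions (0.0504), with limma-voom (0.0726) and in a fit of the 2 groups alone (0.0663). That of Cdt1 was lost with limma-voom (0.0840) and in a fit of the 2 groups alone (0.0566).

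Of 19 marker lists, 3 did not overlap between control and 24 h brain. The share of all genes without overlap between these groups was not counted, so the 3 are not read as a shift in cell types. The 8 T and NK cell markers went from 11.3 to 15.6 CPM down to 3.74 to 6.82, with Cd3d, Cd3g and Cd8a at 0. The 6 markers of oligodendrocyte precursors, a cell type that divides in the adult brain, went from 351 to 393 CPM down to 259 to 341, and the 8 of neuronal progenitors and neuroblasts from 221 to 231 up to 239 to 296. No marker of the latter lists was at 0. Their part in the result was not tested.

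These brain calls rested on few libraries. Without brain control 1, none of the 35 passed: Cdk1 had a log2 fold change of -3.11 (adjusted p = 0.0762), Mki67 of -1.17 (0.0521), Cdt1 of -1.18 (0.238) and Skp2 of 0.80 (0.123), and 7 had an unadjusted p under 0.05. The count was 2 without 0.5 h library 2, 24 h library 1 or 24 h library 2. Cdt1 was also lost without 0.5 h library 2 (0.0512) or 24 h library 1, 2 or 3 (0.0837, 0.0902 and 0.0723), and Skp2 without control 3 (0.117), 0.5 h library 2 (0.0583) or 24 h library 1 or 2 (0.161 and 0.0807). In that control library the 38 genes had a median of 1.90 times the median of the other 8 brain libraries, 2.96 times for mitosis genes and up to 9.96 times for Cdk1. Of 19 lists of cell markers, its summed level was above the other 8 for 3 and below them for 0: mature neutrophils at 23.2 CPM against 10.9 to 13.7, osteoclasts at 18.6 against 6.71 to 12.6 and meningeal fibroblasts at 554 against 407 to 553. Their part in the result was not tested.

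The remaining brain genes did not pass. At 24 h, 29 of 35 fold changes were negative, with a median of -0.52, or -0.25 without brain control 1, and 13 had an unadjusted p under 0.05. Mcm5 read 6.65, 4.5 and 7.86 CPM at 0.5 h and 4.66, 3.65 and 3.81 at 24 h, a log2 fold change from control of -0.87 (adjusted p = 0.076). Top2a read 2.48, 2.18 and 4.47 CPM at 0.5 h and 2.20, 2.57 and 0.969 at 24 h, and the 24 h value against control was -2.25 ± 0.80 (adjusted p = 0.209). Rrm2 read 2.15, 1.79 and 1.15 CPM at 0.5 h and 1.65, 1.89 and 0.761 at 24 h. Groups overlapped for these genes except between control and 24 h in Mcm5 and Top2a. For Cdc6, Cdc45, Cdc20 and E2f1 both irradiated groups overlapped the controls. Cdc6 read 0.847, 0.662 and 0.542 CPM at 0.5 h and 0.617, 0.676 and 0.553 at 24 h. Cdc45 read 1.11, 1.79 and 0.610, then 1.37, 1.08 and 0.830. Cdc20 read 1.17, 1.06 and 0.610, then 0.617, 0.473 and 1.04. E2f1, at a higher level, read 9.58, 5.76 and 10.4 CPM at 0.5 h and 11.7, 10.3 and 7.61 at 24 h. Ccnb1 held too few counts to be tested in brain, with 3, 2 and 2 at 24 h, and read 0.717, 0.397 and 0.339 CPM at 0.5 h and 0.206, 0.135 and 0.138 at 24 h, below its controls.

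From 0.5 h to 24 h in brain none of the 35 passed (0.220% of all genes called; 5 of the 35 at an unadjusted p under 0.05; 0 by DESeq2 and by limma-voom). The smallest p-values in replication were those of Mcm5 (-0.65, edgeR adjusted p = 0.315), Gins2 (-1.37, 0.364) and Mcm2 (-0.58, 0.391), and in mitosis those of Cdk1 (-2.27, 0.281), Mki67 (-0.44, 0.581) and Aurka (0.57, 0.639).

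In meninges at 0.5 h none of the 38 passed, where 0.874% of all genes did. An unadjusted p under 0.05 was met by 4, DESeq2 called 1 and limma-voom 0. The fold changes split into 18 positive and 20 negative, with a median of -0.01. In replication the smallest p-values were those of Cdt1 (-0.70 ± 0.18, edgeR adjusted p = 0.109), Gins2 (-0.61 ± 0.23, 0.262) and Orc6 (-0.23, 0.509). In mitosis they were those of Plk1 (0.95 ± 0.27, 0.136), Aurka (0.87 ± 0.30, 0.234), both mitotic kinases, and Birc5 (-0.53, 0.539).

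At 24 h in meninges 11 genes rose, 0 fell, and the fold changes of all 38 were positive. The share of all genes called higher was 3.97%. The median log2 fold change was 0.58 (1.5-fold) beside 0.02 over all genes. By class, 7 of 17 replication genes rose (median 0.67), 2 of 7 of S phase entry (0.38) and 2 of 14 of mitosis (0.56). The difference between these counts was not tested.

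Origin licensing supplied 4 of the 11. Mcm5 read 15.3, 10.8 and 20.1 CPM in controls, 12.7, 13.9 and 9.02 at 0.5 h and 29.8, 46.8 and 33.5 at 24 h. All late libraries lay above the 6 others, and the log2 fold change was 1.28 ± 0.25 (edgeR adjusted p = 0.0170). Mcm4 read 33.2, 26.8 and 31.2 CPM in controls and 38.9, 54.3 and 49.4 at 24 h, a change of 0.67 ± 0.13 (adjusted p = 0.0122). Mcm6 read 28.5, 27.7 and 35.5 CPM in controls and 42.7, 61.5 and 46.0 at 24 h, a change of 0.73 ± 0.15 (adjusted p = 0.0138). Neither overlapped its control. Cdc6 read 3.25, 2.91 and 3.41 CPM at 0.5 h and 4.36, 7.74 and 6.52 at 24 h, above its controls, a change of 0.94 ± 0.26 (adjusted p = 0.0478).

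The helicase and nucleotide genes followed. Rrm2 read 9.27, 10.6 and 6.03 CPM at 0.5 h and 13.1, 21.8 and 14.3 at 24 h, a change from control of 1.10 ± 0.24 (adjusted p = 0.0180), with every late library above the 6 others. Its partner Rrm1 rose by 0.58 ± 0.14 (adjusted p = 0.0280). Cdc45 read 3.84, 4.70 and 3.25 CPM at 0.5 h and 4.42, 9.73 and 7.97 at 24 h, a change of 1.14 ± 0.31 (adjusted p = 0.0453), with the lowest late library just above the highest control.

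Of the S phase entry genes, Skp2 read 5.32, 6.26 and 5.07 CPM in control meninges, 5.43, 7.61 and 5.09 at 0.5 h and 9.43, 13.4 and 12.6 at 24 h. The late libraries stood clear, with a log2 fold change of 1.11 ± 0.21 (edgeR adjusted p = 0.0116). Cdk2 read 31.5, 26.1 and 27.6 CPM in controls and 34.6, 50.2 and 44.8 at 24 h, a change of 0.63 ± 0.13 (adjusted p = 0.0174). E2f1 read 14.8, 12.4 and 8.65 CPM at 0.5 h and 13.3, 23.2 and 15.9 at 24 h, overlapping its controls.

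The mitosis genes that rose were Plk1 and Aurka. Plk1 read 2.13, 1.74 and 2.51 CPM in controls, 5.06, 4.08 and 2.99 at 0.5 h and 5.13, 4.53 and 4.21 at 24 h, a change at 24 h of 1.14 ± 0.27 (adjusted p = 0.0255). Aurka read 1.13, 2.23 and 2.62 CPM in controls, 3.89, 3.71 and 3.25 at 0.5 h and 4.36, 4.20 and 4.79 at 24 h, a change of 1.18 ± 0.30 (adjusted p = 0.0380). For both, the 0.5 h libraries already lay above the controls. Top2a read 21.6, 19.9 and 13.3 CPM at 0.5 h and 21.3, 44.9 and 40.7 at 24 h (0.89 ± 0.35, adjusted p = 0.175). Mki67 read 28.4, 22.6 and 15 CPM at 0.5 h and 19.2, 32.1 and 27.1 at 24 h (0.25 ± 0.27, adjusted p = 0.626). Both overlapped their controls at 24 h. Cdk1 read 5.22, 6.19 and 5.30 CPM and then 6.54, 11.7 and 5.71, Ccnb1 3.30, 3.77 and 2.47 and then 3.16, 3.76 and 3.92, and Cdc20 4.26, 6.62 and 3.62 and then 5.02, 7.90 and 7.16, none of which passed.

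The count in meninges depended on single libraries. It was 3 without control 1, 2 without control 2, 4 without 24 h library 2 and 5 without 24 h library 3. Skp2 was the only 1 of the 11 that passed without any of the 9 libraries in turn (highest adjusted p = 0.0485). Mcm4 was lost without control 2 (0.0582), Mcm5 without control 1 (0.0643) and Mcm6 without control 1 or 2 (0.0531 and 0.0613). Rrm2 was lost without control 1 or 2 or 24 h library 2 (0.0590, 0.0686 and 0.0706), and Cdk2 without control 2 or 24 h library 2 or 3 (0.0759, 0.0656 and 0.0570). Rrm1 and Plk1 were lost without 5 libraries each, with adjusted p-values of up to 0.103 and 0.0993. Cdc6, Cdc45 and Aurka were lost without any library but 1: 24 h library 1 for Cdc6 and Cdc45 and control 3 for Aurka. Other settings ended calls too. Cdc6 (0.0535) and Cdc45 (0.0567) were lost with non-robust dispersions, Rrm2 (0.0784) and Cdc6 (0.0809) in the fit of all 27 libraries, and Rrm1 (0.0616), Cdc45 (0.0868), Aurka (0.0872) and Cdc6 (0.0946) in a fit of the 2 groups alone.

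Of 19 marker lists in meninges, 5 did not overlap between control and 24 h, and all 5 were lower at 24 h. Here too the share of all genes without overlap was not counted, so the 5 are not read as a shift in cell types. The B cell precursor markers went from 136 to 143 CPM down to 91.6 to 113, the T and NK cell markers from 28.9 to 35.4 to 21.9 to 25.0, and the 7 osteoclast markers from 548 to 747 to 473 to 543. The pineal gland markers went from 1140 to 1360 CPM to 763 to 937, and those of neuronal progenitors and neuroblasts from 114 to 127 to 96.8 to 109. The erythroid markers (1780 to 2440, then 1450 to 1840 CPM), the stem and progenitor markers (185 to 226, then 220 to 241) and the osteoblast markers (20200 to 35900, then 12400 to 27100) overlapped. Meninges 24 h library 2 had the highest progenitor markers (241 CPM) and microglia markers (475) of its tissue, and control 2 the highest osteoblast (35900), erythroid (2440) and muscle (4240) markers. None of these lists had a marker at 0 in meninges at 24 h. Their part in the result was not tested.

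**Figure D3:**
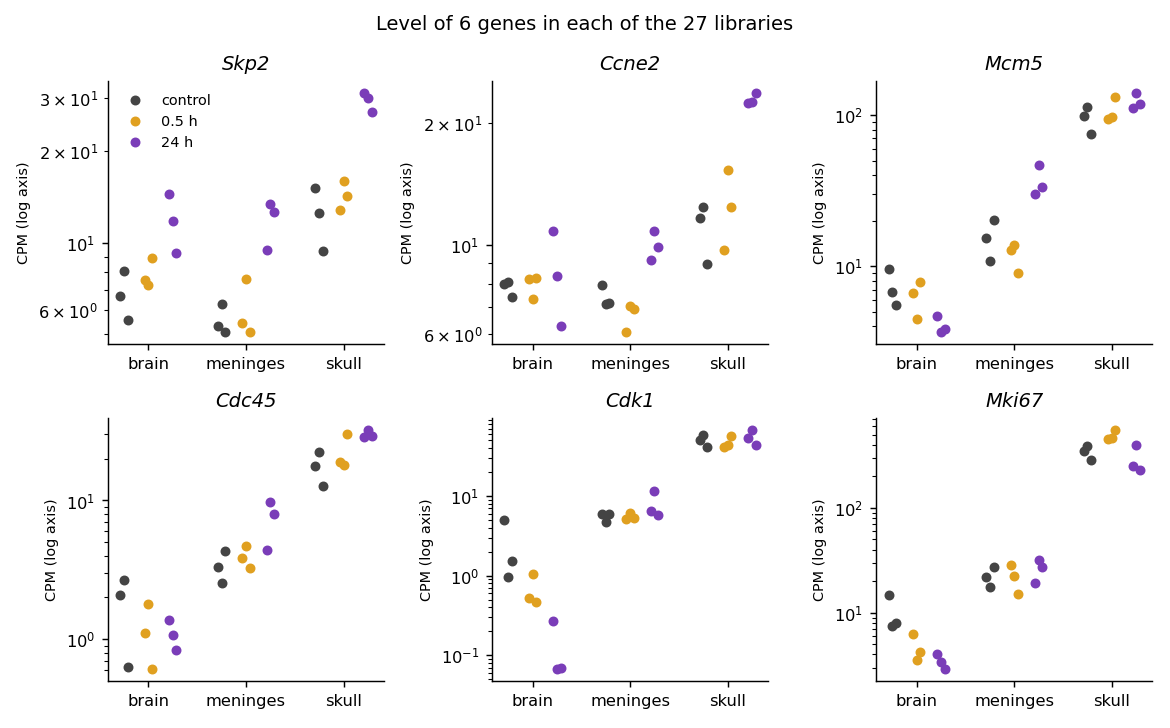
Level of 6 genes in each of the 27 libraries, as CPM on a log axis, by tissue and group. Mcm5 and Skp2 lie higher at 24 h in meninges than in any earlier meninges library, and Cdk1 in brain falls to 0.0676 CPM in the lowest 24 h library.

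Between 0.5 h and 24 h in meninges 6 genes rose, where 1.07% of all genes were called higher. They were Mcm5 (1.63 ± 0.26, edgeR adjusted p = 0.0156), Mcm6 (0.80 ± 0.15, 0.0201), Gins2 (1.11 ± 0.23, 0.0315), a subunit of the GINS complex of the helicase, Skp2 (0.97 ± 0.21, 0.0413), Mcm4 (0.59 ± 0.13, 0.0421) and Cdt1 (0.79 ± 0.18, 0.0486). All but Skp2 belong to replication, and none to mitosis. The median over the 38 was 0.59. Gins2 read 3.25, 3.54 and 4.79 CPM in controls, 2.34, 2.47 and 2.67 at 0.5 h and 5.29, 6.08 and 4.79 at 24 h, so that the 0.5 h libraries were the lowest. No gene of the 6 kept its call without each library in turn. The count was 0 without 0.5 h library 1 or 3, 1 without 24 h library 2, 2 without control 2, 0.5 h library 2 or 24 h library 3, and 3 without control 1. With non-robust dispersions Mcm4 (0.0572), Skp2 (0.0524) and Cdt1 (0.0601) were lost, and with the 2 groups alone Gins2 (0.0502), Mcm4 (0.0577), Skp2 (0.0641) and Cdt1 (0.0625). Mcm4 was also lost in the fit of all 27 libraries (0.0613).

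In skull at 0.5 h none of the 38 passed, where 4.90% of all genes did. An unadjusted p under 0.05 was met by 9, of which 4 were mitosis genes, and DESeq2 called 2 and limma-voom 0. The fold changes were positive for 32, with a median of 0.26. The smallest p-values were those of Ccnb1 (0.54 ± 0.16, edgeR adjusted p = 0.0821), Plk1 (0.63 ± 0.20, 0.0918) and Mki67 (0.52 ± 0.19, 0.153) in mitosis, and of Rrm2 (0.39 ± 0.14, 0.135), Cdc6 (0.35 ± 0.15, 0.184) and Mcm7 (0.24 ± 0.10, 0.186) in replication. Mki67 read 454, 461 and 556 CPM at 0.5 h, all above the controls at 350, 387 and 285. Ccnb1 read 36.9, 43.4 and 48.0 CPM, also above its controls. The count was 1 without skull control 2 and 3 without 24 h library 2. Skull 0.5 h library 3 was above the other 8 skull libraries for 8 of 19 marker lists, among them erythroid (10100 CPM), B cell precursor (508) and granulocyte precursor (6810) markers.

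At 24 h in skull 8 genes rose and 0 fell, where 10.6% of all genes were called higher. The median log2 fold change was 0.30, with 4 of 17 replication genes (median 0.35), 3 of 7 S phase entry genes (0.30) and 1 of 14 mitosis genes (0.24). The smallest p-values were those of Skp2 and Ccne2, of S phase entry. Skp2 read 15.1, 12.5 and 9.41 CPM in controls, 12.8, 16 and 14.2 at 0.5 h and 31.1, 29.9 and 27 at 24 h. No late library came near the earlier ones, and the change was 1.25 ± 0.16 (edgeR adjusted p = 0.000372). Ccne2, cyclin E2, a partner of Cdk2, read 11.6, 12.4 and 8.96 CPM in controls, 9.68, 15.3 and 12.4 at 0.5 h and 22.4, 22.5 and 23.7 at 24 h, a change of 1.06 ± 0.18 (adjusted p = 0.00158). E2f1 read 19.9, 19.6 and 26.9 CPM at 0.5 h and 35.7, 38.4 and 25.9 at 24 h, a change from control of 0.64 ± 0.17 (adjusted p = 0.0208), with the late libraries above the controls.

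The replication genes that rose in skull were Tyms, Gins2, Cdc45 and Mcm4. Tyms, thymidylate synthase, read 21.7, 23.8 and 16.5 CPM in controls, 23.6, 21.7 and 27.5 at 0.5 h and 37.8, 37.4 and 32.4 at 24 h, a change of 0.80 ± 0.14 (edgeR adjusted p = 0.00203). Gins2 read 6.60, 6.68 and 7.17 CPM in controls, 5.94, 5.96 and 8.14 at 0.5 h and 14.6, 12.7 and 10.8 at 24 h, a change of 0.90 ± 0.18 (adjusted p = 0.00435). In both, the late libraries stood above all earlier ones. Cdc45 read 19.1, 18.1 and 30.3 CPM at 0.5 h and 28.8, 32.4 and 29.4 at 24 h, a change from control of 0.79 ± 0.21 (adjusted p = 0.0244). Mcm4 rose by 0.51 ± 0.16 (adjusted p = 0.0490), a call lost with RLE scaling (0.0564), with scaling that left out haemoglobin and mitochondrial genes (0.0520) and with no filter (0.0533). In the fit of all 27 libraries Cdc45 (0.105), E2f1 (0.0554) and Ccnb1 (0.118) were lost.

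Other licensing and nucleotide genes in skull did not pass. Mcm5 read 94.4, 97.6 and 132 CPM at 0.5 h and 111, 140 and 118 at 24 h (0.37 ± 0.16, adjusted p = 0.130). Cdc6 read 25.6, 26.0 and 37.8 CPM, then 24.3, 30.3 and 24.6. Rrm2 read 105, 118 and 143 CPM, then 102, 139 and 103. All 3 overlapped their controls at 24 h.

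The mitosis gene that rose in skull was Ccnb1, at 38.9, 56.1 and 37.6 CPM at 24 h, a change of 0.60 ± 0.16 (edgeR adjusted p = 0.0240), with all late libraries above the controls. Mki67 read 249, 396 and 230 CPM at 24 h (-0.22 ± 0.19, adjusted p = 0.467), Top2a 224, 257 and 293 at 0.5 h and 254, 323 and 221 at 24 h (0.36 ± 0.15, 0.121). Cdk1 read 41.2, 43.6 and 57.5 CPM and then 54.4, 68.2 and 43.8, and Cdc20 39.9, 47.2 and 62.0 and then 47.9, 58.7 and 36.0. These 4 overlapped their controls at 24 h. Skp2, Ccne2, Tyms and Gins2 passed without each of the 9 libraries in turn. E2f1 was lost without skull control 3 (0.0567) or 24 h library 1 (0.0758) or 2 (0.0730), and Ccnb1 without control 1 or 3 (0.0771 and 0.0754) or 24 h library 2 (0.0766). Cdc45 was lost without control 1 or 3 (0.0728 and 0.0520) or any 24 h library (0.0584, 0.0683 and 0.0623), and Mcm4 without 6 libraries, controls 1 and 3, 0.5 h library 1 and each 24 h library, at up to 0.136. The count was 5 without control 1 and 4 without control 3.

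Gins2 and Ccne2 share exon bases with a gene on the opposite strand, and whether the counting used strand is not given in the sources used here, so reads of the partners cannot be told apart. Gins2 shares 2758 bases (67.3% of its exons) with Gse1, which at 24 h fell in meninges by 0.55 (edgeR adjusted p = 0.00846) and had -0.16 in skull (0.388). Ccne2 shares 609 bases (17.4%) with Ints8, which rose in skull by 0.47 (0.0171). Cdc45 shares 209 bases (6.0%) with Ufd1. Larger opposite-strand shares were found for Ccna2 (12.5%, with Exosc9), E2f8 (11.2%, Gm2788) and Orc1 (10.8%, Gm12743). The same holds for Mcm7 (7.3%, Ap4m1), Plk1 (7.1%, Gm44985) and Orc6 (6.9%, Vps35). Cdca8, Cdc20 and Cdk2 share 4.5% or less in this way. Skp2 shares none. Tyms, Ccnb1 and Ccnb2 have pseudogenes named after them, whose reads the counting could have split.

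Of the marrow lists in skull, the erythroid and B cell precursor markers did not overlap between control and 24 h, and were lower at 24 h. The erythroid markers summed to 6160 to 6810 CPM in controls, 6400 to 10100 at 0.5 h and 3530 to 5470 at 24 h. The B cell precursor markers summed to 359 to 415, 368 to 508 and 161 to 289 CPM. The granulocyte precursor markers summed to 3390 to 6760, 4480 to 6810 and 2860 to 4520 CPM, and overlapped their controls at 24 h. So did the markers of stem and progenitor cells (154 to 212, then 192 to 220 CPM at 24 h) and of mature neutrophils (3840 to 5960, then 3060 to 4190). Those of monocytes and macrophages overlapped as well (1750 to 2680, then 1680 to 2100). Microglia markers, several of which macrophages also express, went from 391 to 443 CPM in controls to 556 to 637 at 24 h. The markers of neuronal progenitors and neuroblasts went from 23.2 to 28.8 CPM to 37.6 to 56.7. The share of all genes without overlap was not counted in skull either, so these lists are not read as a shift in cell types. No marker of these lists was at 0 in skull. Skull control 3, the lowest for 29 of the 38 genes, had the highest osteoblast (102000 CPM), osteoclast (4600) and fibroblast (5040) markers and the lowest progenitor markers (154). Their part in the result was not tested.

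**Figure D4:**
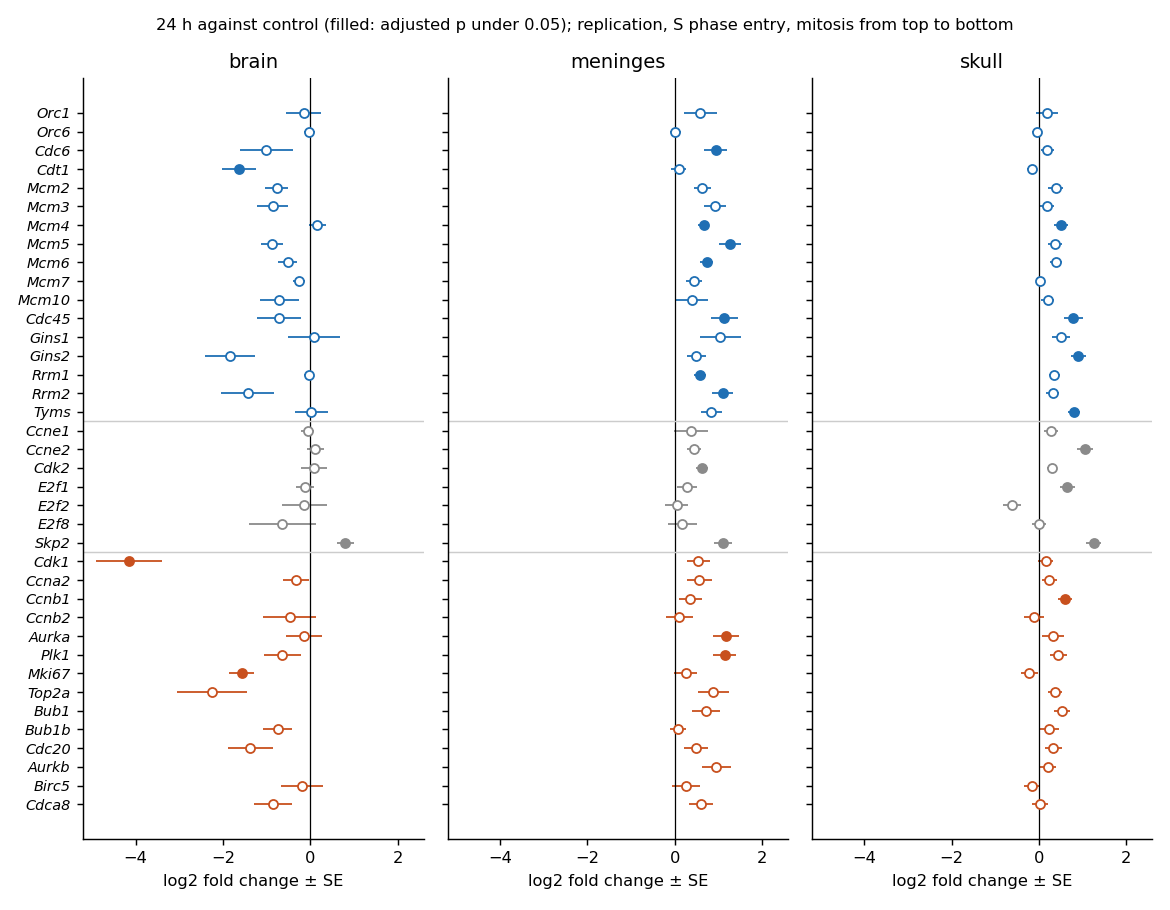
Log2 fold change at 24 h against control with its SE for each gene, in 1 panel per tissue, filled where the adjusted p was under 0.05, with replication, S phase entry and mitosis genes from top to bottom. All 38 values are positive in meninges, 29 of 35 are negative in brain, and Skp2 is filled in all 3 tissues.

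From 0.5 h to 24 h in skull 5 genes rose, where 8.39% of all genes were called higher, and 2 fell, where 7.74% were called lower. Those that rose were Skp2 (1.04 ± 0.16, edgeR adjusted p = 0.00157), Gins2 (0.94 ± 0.18, 0.00466), Ccne2 (0.88 ± 0.18, 0.00580), Tyms (0.58 ± 0.14, 0.0148) and E2f1 (0.60 ± 0.17, 0.0330). Those that fell were E2f2 and Mki67. E2f2 read 142, 132 and 103 CPM in controls, 138, 144 and 192 at 0.5 h and 66.9, 109 and 68.4 at 24 h, a change of -0.95 ± 0.21 (adjusted p = 0.0161). Mki67 changed by -0.74 ± 0.19 (adjusted p = 0.0304). In both, every 24 h library lay below every 0.5 h library. The median was 0.07, and -0.11 for the mitosis genes.

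Single libraries again set several of these calls. Skp2, Gins2 and Ccne2 passed without each library in turn. E2f2 was lost without 0.5 h library 3 (0.0501) or 24 h library 1 (0.0563) or 3 (0.0604), and Mki67 without any 0.5 h library (0.0692, 0.0680 and 0.0961) or 24 h library 1 (0.105) or 3 (0.0886). Tyms was lost without 0.5 h library 1 (0.0532) or 2 (0.0631) or 24 h library 1 (0.0611). E2f1 was lost without 0.5 h library 1 (0.122) or 2 (0.116) or 24 h library 1 (0.116) or 2 (0.101). The count was 4 without 0.5 h library 1 or 2 and 3 without 24 h library 1. With no filter E2f2 (0.0640) and Mki67 (0.125) were lost, in the fit of all 27 libraries Tyms (0.123), E2f1 (0.0925) and Mki67 (0.0716), and with the 2 groups alone Mki67 (0.0676).

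Whether the effect of irradiation differed between tissues was tested as an interaction in 1 fit of all 27 libraries. These comparisons share the controls and late libraries of each tissue. The fit treats libraries of different tissues as independent, and the labels do not say which came from the same animal. It also takes 1 spread per gene for all tissues, although they differ in composition. Ccnb1, Bub1 and Aurkb had too few counts to be tested in brain alone. Their values against brain in this fit rest on a brain change that could not be tested. At 0.5 h none of the 38 differed between meninges and brain (0.0093% of all genes called; 7 of the 38 at an unadjusted p under 0.05; 0 by DESeq2 and limma-voom). The smallest p-values were those of Aurka (1.59 ± 0.49, edgeR adjusted p = 0.485), Cdk1 (1.96 ± 0.64, 0.527) and Ccnb1 (1.54 ± 0.55, 0.596) in mitosis and Rrm2 (1.40, 0.759), Rrm1 (0.31) and Cdc6 (0.87) in replication. Between skull and brain 0 passed at 0.5 h (0.209% called; 13 unadjusted; 2 by DESeq2, 0 by limma-voom), led by Mki67 (1.67 ± 0.42, adjusted p = 0.126), Ccnb1 (1.94 ± 0.51, 0.131) and Cdk1 (1.88 ± 0.62, 0.245), and by Cdt1 (0.89 ± 0.32, 0.297), Rrm2 (1.65 ± 0.59) and Rrm1 (0.49 ± 0.19). Between skull and meninges 0 passed (0.0093% called; 1 unadjusted; 0 by DESeq2 and limma-voom), where the smallest p-values were those of Cdt1 (0.56, adjusted p = 0.858), Mcm5 (0.56) and Gins2 (0.60) in replication and Bub1b (0.67, 0.897), Ccna2 (0.55) and Mki67 (0.54) in mitosis.

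At 24 h the effect was more positive in meninges than in brain for 9 genes, where 0.600% of all genes were called so. They were 5 replication genes, Mcm5 (2.13 ± 0.38, edgeR adjusted p = 0.00484), Cdt1 (1.72 ± 0.34, 0.00989), Gins2 (2.32 ± 0.47, 0.0107), Mcm6 (1.24 ± 0.27, 0.0207) and Rrm2 (2.58 ± 0.62, 0.0464), and 4 mitosis genes. The mitosis genes were Cdk1 (4.74 ± 0.82, 0.00422), Ccnb1 (3.29 ± 0.65, 0.00944), Top2a (3.14 ± 0.76, 0.0472) and Mki67 (1.80 ± 0.44, 0.0472). Ccnb1 had too few counts to be tested in brain alone (3, 2 and 2 at 24 h) and entered this fit through the other tissues, so its value rests on a brain change that could not be tested. For Mcm5, Mcm6 and Rrm2 the tissues differ in what passed: all rose in meninges, and none passed in brain. Gins2 and Top2a passed at 24 h against control in neither tissue alone. For Cdk1, Cdt1 and Mki67 the brain values fell, and those in meninges did not pass. Skp2, called in both tissues, differed by 0.28 ± 0.28 (adjusted p = 0.714).

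The difference between meninges and brain kept Mcm5, Gins2, Cdk1 and Cdt1 without each of the 12 libraries in turn. Ccnb1 was lost without brain control 1 (0.0548). Mcm6 was lost without that library (0.0832), brain 24 h library 1 (0.0694), meninges control 1 or 2 (0.0614 and 0.0605) or meninges 24 h library 2 (0.0625). Top2a and Mki67 were lost without each of 8 libraries and Rrm2 without each of 9, with the highest adjusted p-values without brain control 1 (0.173, 0.148 and 0.203). The count was 4 without brain control 1 and 5 without meninges control 1, meninges control 2 or meninges 24 h library 2. In a fit of only the groups compared Mcm5 alone passed, and limma-voom kept Mcm5, Gins2 and Cdk1. With no filter Rrm2 (0.0884), Mki67 (0.0905) and Top2a (0.0799) were lost.

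Between skull and brain 11 genes had a more positive effect at 24 h in skull, where 3.33% of all genes did. In replication they were Gins2 (2.74 ± 0.46, edgeR adjusted p = 0.000776), Cdt1 (1.5 ± 0.34, 0.0088), Mcm6 (0.91 ± 0.27, 0.0429), Mcm5 (1.24 ± 0.37, 0.0456) and Mcm2 (1.15 ± 0.35, 0.0491). In mitosis they were Ccnb1 (3.55 ± 0.62, 0.00109), Cdk1 (4.36 ± 0.81, 0.00226), Top2a (2.64 ± 0.75, 0.0393), Bub1 (2.86 ± 0.86, 0.0467) and Cdc20 (1.75 ± 0.53, 0.0496). Ccne2, of S phase entry, completed them (0.94 ± 0.25, 0.0224). Bub1 and Ccnb1 had too few counts to be tested in brain alone (5, 3 and 1 counts for Bub1 at 24 h) and entered this fit through the other tissues. Gins2, Ccnb1 and Cdk1 passed without each of the 12 libraries, which for Ccnb1 does not lift the limit just given. Mcm2, Mcm6, Top2a, Bub1 and Cdc20 were lost with no filter, with limma-voom and in a fit of only the groups compared, Mcm5 with no filter (0.0801) and limma-voom (0.116) and Cdt1 with limma-voom (0.0892). Without brain control 1 the count was 4, and Cdt1 was at 0.0504. Ccne2 was lost without brain 24 h library 3, skull control 3 or skull 24 h library 3 (0.0602, 0.0607 and 0.0516). Mcm2, Mcm5, Mcm6, Top2a and Bub1 were lost without any of 10 of the 12 libraries, and Cdc20 without 8, with the highest value without brain control 1 in each (0.198, 0.156, 0.171, 0.217, 0.514 and 0.288). The count was 4 without skull control 3 and 5 without skull control 1 or any 24 h library of brain or skull. Between skull and meninges 0 passed at 24 h (0.633% called; 2 unadjusted; 0 by DESeq2 and limma-voom), where the smallest p-values were those of Mcm5 (-0.89, adjusted p = 0.296), Mcm7 (-0.39) and Mcm3 (-0.72) in replication and Aurka (-0.83 ± 0.43, 0.489), Plk1 (-0.68 ± 0.39, 0.542) and Cdca8 (-0.56 ± 0.39, 0.643) in mitosis.

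Replication and mitosis were set against each other by a score per library, the mean of log2(CPM + 0.5) over the 17 replication or the 14 mitosis genes. The 2 scores are not per length, so only their differences between groups are read, and they carry no test. The replication score averaged 2.18 ± 0.35 (SD, n = 3) in brain controls, 3.28 ± 0.23 in meninges and 5.21 ± 0.21 in skull, and the mitosis score 1.40 ± 0.65, 2.50 ± 0.24 and 5.54 ± 0.28. Replication minus mitosis was thus 0.78 ± 0.30 and 0.77 ± 0.12 in brain and meninges and -0.33 ± 0.07 in skull, where the values did not overlap those of the other tissues. At 24 h the replication score was 1.77 ± 0.03 in brain, 3.91 ± 0.28 in meninges and 5.55 ± 0.13 in skull, and the mitosis score 0.63 ± 0.15, 3.001 ± 0.272 and 5.74 ± 0.31.

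In skull the difference was -0.47 ± 0.04 at 0.5 h, from -0.51 to -0.44, below the controls at -0.40 to -0.26, and -0.19 ± 0.18 at 24 h, from -0.39 to -0.04. The 0.5 h libraries did not overlap the others, and the 24 h libraries overlapped the controls. In meninges it was 0.69 ± 0.12 at 0.5 h and 0.91 ± 0.13 at 24 h, overlapping the controls. In brain it was 1.09 ± 0.16 at 0.5 h and 1.14 ± 0.15 at 24 h, and the 24 h libraries, at 1.03 to 1.31, lay above the controls, at 0.43 to 0.99, of which brain control 1 was the lowest. Against control, the difference at 24 h was higher by 0.36 in brain, or 0.18 without brain control 1, and by 0.14 in meninges and 0.14 in skull. With the median over genes in place of the mean, the same changes were -0.20, -0.12 and -0.33, so the direction depended on how the genes were averaged. Over 6 other settings, this one included, the change in brain ran from -0.197 to 0.564. The 0.5 added to each CPM is not small beside the mitosis genes in brain, whose median was 1.92 CPM in controls and 1.23 at 24 h. The brain scores therefore depend in part on that choice.

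**Figure D5:**
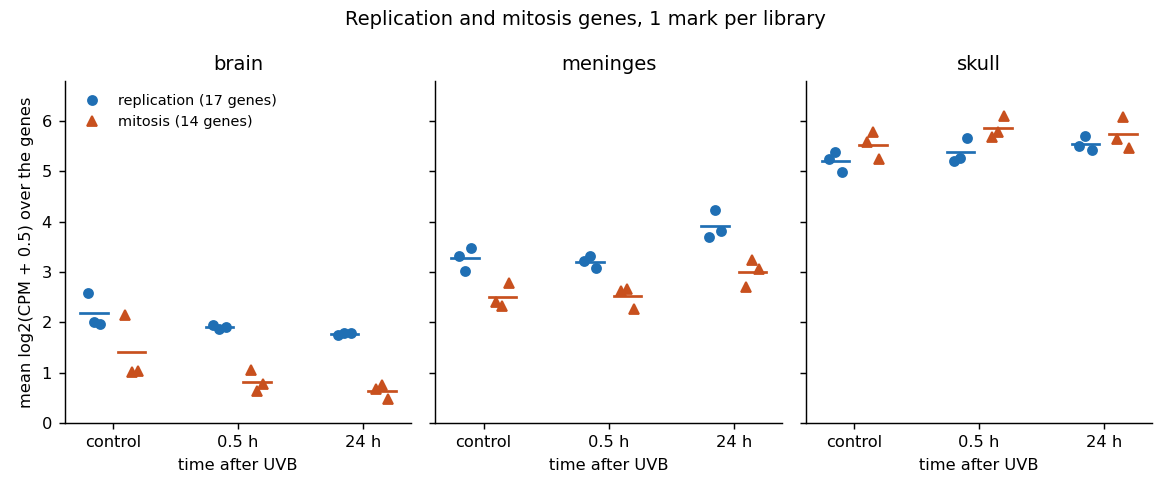
Mean of log2(CPM + 0.5) over the replication genes and over the mitosis genes, 1 mark per library, by time after UVB in each tissue. Both means are highest in skull, and replication minus mitosis averages 0.78 in untreated brain, 0.77 in untreated meninges and -0.33 in untreated skull.

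Other genes of the same pathways, listed by their role, were counted in the same fits, and the share of all genes called the same way stands beside each count. Of 38 other replication genes, such as polymerases and clamp loaders, 10 of 37 tested rose in meninges at 24 h (3.97% of all genes; median 0.37), led by Cdc7 (1.35 ± 0.21), the kinase that fires origins, Pold3 (0.61 ± 0.11) and Rfc2 (0.49 ± 0.09). In skull 13 of 37 rose at 24 h (10.6% of all genes; median 0.29), among them Rpa1 (0.51 ± 0.11), a subunit of the single-strand binding protein, and Cdc7 (0.75 ± 0.16). None fell in either tissue, and in brain none of 35 passed at 24 h (4 at an unadjusted p under 0.05).

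Of 50 other mitosis genes, 4 rose (3.97% of all genes) and 1 fell (4.45%) in meninges at 24 h. Those that rose included Cdc25b (0.68 ± 0.12), a phosphatase that activates Cdk1, Tubb5 (0.55 ± 0.11), a tubulin, and Pbk (1.68 ± 0.38). The gene that fell was Hmgb2 (-0.92 ± 0.18), a chromatin protein. In skull 18 rose (10.6%) and 2 fell (10.4%) at 24 h (median 0.40). Prc1 (1.03 ± 0.14), which bundles the midzone of the spindle, Tubb5 (0.66 ± 0.10) and Plk4 (0.82 ± 0.14), the kinase of centriole duplication, led those that rose, and Pttg1 (-0.64 ± 0.16) and Hmgb2 (-0.59 ± 0.17) fell. The difference between these 18 of 50 and the 1 of 14 above was not tested. At 0.5 h in skull 4 of the 50 rose (1.96% of all genes), among them Prc1 (0.69 ± 0.14), Nuf2 (0.58 ± 0.14) and Aspm (0.91 ± 0.21). In brain at 24 h Hmgb2 (-2.64 ± 0.26) and Cenpa (-1.24 ± 0.28), the centromeric histone, fell, 2 of 43 tested (1.42% of all genes).

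Lists of regulators were counted as well. Among 17 Rb, E2F and MuvB genes, 4 rose in meninges at 24 h (3.97% of all genes), led by Lin9 (1.37 ± 0.22), a MuvB subunit, E2f7 (1.74 ± 0.39), an E2F repressor, and E2f5 (0.56 ± 0.13). In skull 6 rose (10.6%), led by E2f7 (1.01 ± 0.15), E2f3 (0.57 ± 0.11) and Tfdp1 (0.48 ± 0.11), the dimer partner of E2Fs. Of 7 G1 cyclins, kinases and Myc genes, Ccnd1, cyclin D1, rose by 0.94 ± 0.14 in meninges and 1.84 ± 0.16 in skull (edgeR adjusted p = 4.33e-05). Cdk4 rose by 0.48 ± 0.08 and 0.52 ± 0.09, and Ccnd2 by 0.40 ± 0.08 and 0.59 ± 0.10. These are 3 of the 7 in each tissue, beside 3.97% and 10.6% of all genes. Myc fell in skull, by 1.19 ± 0.10 at 0.5 h (2.94% of all genes called lower) and by 1.13 ± 0.10 at 24 h (10.4%). Mycn rose in brain at 24 h (1.05 ± 0.26), where 1.21% of all genes were called higher.

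Of 13 inhibitors of the cycle, 1 of 11 tested fell in brain at 24 h, 2 of 12 in meninges and 6 of 13 in skull, beside 1.42%, 4.45% and 10.4% of all genes. Cdkn1a, which encodes the kinase inhibitor p21, was among them in each tissue. At 24 h it fell by 1.80 ± 0.19 in brain, by 1.97 ± 0.20 in meninges and by 1.25 ± 0.12 in skull. At 0.5 h it had fallen by 1.25 ± 0.19 in meninges (0.507% of all genes called lower) and by 1.23 ± 0.12 in skull. Btg1, an antiproliferative factor, fell by 0.74 ± 0.09 in meninges and by 1.07 ± 0.09 in skull at 24 h. In skull 3 of 13 rose at 24 h, where 10.6% of all genes were called higher. They were Cdkn2c (0.65 ± 0.14), Ccng1 (0.65 ± 0.16) and Wee1 (0.35 ± 0.11), the kinase that restrains Cdk1. At 0.5 h Wee1 had been called lower in skull (-0.54 ± 0.11), where 2.94% of all genes were called lower. Ccng2 (-0.72 ± 0.10) fell in skull at 24 h.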

How the data were processed

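Whole-number read counts per gene in 27 libraries were used as deposited, with no normalization. Reads were aligned with HISAT2 2.1.0 to mm10, per the submitters' processing notes. For the counting tool, its annotation and strand setting: not given in the sources used here. Library totals ran from 14208961 to 27305294 counts.

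Genes were filtered with filterByExpr (minimum count 10, minimum total 15) and scaled by TMM, and tested with edgeR 4.0.16's quasi-likelihood F test with robust dispersions in R 4.3.3. Irradiated and control groups were compared in fits of the 9 libraries of a tissue, since the tissues differ in composition. Tissues and the differences between their effects were compared in 1 fit of all 27 libraries. That fit takes 1 spread per gene for all tissues. Benjamini-Hochberg adjustment ran over every gene tested, with a threshold of 0.05. SEs are the absolute log2 fold change divided by the square root of F. Levels per kb used exons of GENCODE M21. The scripts were tested on simulated data. DESeq2 1.42.0, limma 3.58.1 (voom), no filter, RLE factors, scaling that left out genes of haemoglobin and mitochondria, non-robust dispersions, a replicate block, other sets of libraries and leaving out each library were the alternatives.

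The 38 genes and the marker and pathway lists were chosen with earlier results of these data known. In each comparison full values are given for genes that passed, at most 8 in each direction by p, and otherwise for the 3 replication and 3 mitosis genes with the smallest p. Mcm5, Cdc6, Cdc45, Rrm2, E2f1, Mki67, Top2a, Cdk1, Ccnb1 and Cdc20 are given in every library whatever their test, and levels of a few others were added after their values were seen. From the pathway lists, at most 3 genes in each direction are named. Some genes of the lists are not reported here.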

Additional observations from a re-analysis of the deposited data

Results flagged for a closer look

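For 9 genes the change at 24 h differed between meninges and brain, by the interaction term of edgeR's fit of 27 libraries at an adjusted p under 0.05. On the log2 scale the change in meninges minus that in brain was 1.724 for Cdt1, 2.129 for Mcm5, 1.235 for Mcm6, 2.32 for Gins2 and 2.575 for Rrm2 among replication genes. Among mitosis genes it was 4.74 for Cdk1, 3.286 for Ccnb1, 1.804 for Mki67 and 3.142 for Top2a. The brain change of Ccnb1 held too few counts to be tested in brain alone.

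For 11 genes the change at 24 h differed between skull and brain by the same test. The change in skull minus that in brain was 1.495 for Cdt1, 1.149 for Mcm2, 1.242 for Mcm5, 0.905 for Mcm6 and 2.739 for Gins2. It was 0.937 for Ccne2, 4.362 for Cdk1, 3.547 for Ccnb1, 2.641 for Top2a, 2.861 for Bub1 and 1.746 for Cdc20. Ccnb1 and Bub1 had too few counts to be tested in brain alone and entered this fit through the other tissues. Both comparisons use the same brain libraries, and brain control 1 was the highest brain library for 28 of the 38 genes. Without it 4 genes passed in each comparison, and the values for Cdk1 were 3.65 (edgeR adjusted p = 0.0068) and 3.27 (0.00504).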

How the results depend on the processing

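Counts of called genes moved by over 1.5 times under some settings. Without the filter on low counts they were 2 in brain at 0.5 h, 8 in brain at 24 h, 10 in meninges from 0.5 to 24 h, 3 in skull at 0.5 h and 5 for the 24 h effect in skull minus brain. DESeq2 called 1 in meninges and 2 in skull at 0.5 h, 15 in meninges from 0.5 to 24 h, 18 for the 24 h effect in meninges minus brain and 2 for the 0.5 h effect in skull minus brain. Limma-voom called 2 in brain at 24 h, 10 in meninges from 0.5 to 24 h, 3 for the 24 h effect in meninges minus brain and 4 for that in skull minus brain. With 2 groups alone the counts were 2 in brain and 7 in meninges at 24 h and 3 in meninges from 0.5 to 24 h, where non-robust dispersions also gave 3. All 27 libraries gave 5 in skull at 24 h and 4 from 0.5 to 24 h. With only the groups compared, the 24 h effects gave 1 for meninges and 6 for skull, each minus brain. Replication minus mitosis by the median over genes changed by -0.197 in brain, -0.117 in meninges and -0.331 in skull at 24 h. The cause of these shifts was not tested.

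Within a tissue, same-numbered libraries of different groups did not deviate together (27 correlations from -0.396 to 0.117), so no pairing by number was seen there. Whether same-numbered libraries of brain, meninges and skull came from the same animal was not examined. With the replicate number as a block the counts were 6 in meninges at 24 h, 2 from 0.5 to 24 h, and 6 for the 24 h effect in skull minus brain, and 21 of 158 single-gene calls were lost, among them Skp2 in brain (0.0578), Mcm5 (0.0563), Plk1 (0.0508), Aurka (0.0669), Cdc45 (0.0854) and Cdc6 (0.0867) in meninges and Mcm4 (0.0772) and Cdc45 (0.0532) in skull, all at 24 h.

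Leaving out each library in turn gave 0 to 5 called in brain at 24 h, 2 to 11 in meninges at 24 h, 0 to 7 from 0.5 to 24 h there, 0 to 3 in skull at 0.5 h, 4 to 12 at 24 h and 3 to 8 from 0.5 to 24 h. It gave 0 to 0 in brain at 0.5 h, in brain from 0.5 to 24 h and in meninges at 0.5 h. Between untreated tissues it gave 22 to 29 for meninges against brain, 36 to 37 for skull against brain and 36 to 38 for skull against meninges. The 24 h effects gave 4 to 13 for meninges minus brain, 4 to 12 for skull minus brain and 0 to 0 for skull minus meninges, and the 3 effects at 0.5 h gave 0 to 0. Replication minus mitosis changed by 0.185 to 0.463 in brain, 0.101 to 0.213 in meninges and 0.066 to 0.24 in skull. Of 1176 single-gene values so recomputed, 241 lost their call and 0 reversed. Low counts limit the precision of the mitosis genes in brain, where Cdk1 had 4, 1 and 1 counts at 24 h.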
